A study of Mus musculus with 12 samples.

Results

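Expression of 10 claudin and tight junction genes was examined in mouse dorsal epidermis: the claudins Cldn1, Cldn3, Cldn4, Cldn7, Cldn8, Cldn12 and Cldn23, occludin (Ocln), the adhesion molecule F11r (also called JAM-A) and the scaffold Tjp1 (also called ZO-1). They were taken by name from a list of tight junction genes and found by Entrez gene number, and they are 10 of the 17665 genes with values at both ages studied. The series concerns the skin permeability barrier after deletion of the vitamin D receptor gene Vdr and of Med1, which encodes a Mediator subunit that acts as its coactivator. Its 12 libraries fall into 4 groups of 3: mice labelled DKO (K14 Cre+/- with the floxed alleles Med1 fl/fl and VDR fl/fl) and controls labelled CON (K14 Cre-/- with the same floxed alleles), each at postnatal day 36 (P36) and at 6 months, all on a C57BL/6 background. The floxed alleles are thus shared by all groups, and the keratin 14 promoter drives Cre in basal keratinocytes and their descendants, so immune, endothelial and other cells of different origin are not its target. The labels do not say whether the 3 libraries of a group came from separate animals, so the p-values refer to the spread over these samples alone, which may be technical.

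Tight junctions seal the space between neighbouring epithelial cells. Claudins are membrane proteins with 4 passes through the membrane whose strands form the seal, and the claudins a tissue uses set which ions and solutes can pass. Occludin and junctional adhesion molecules sit beside them, and scaffolds of the ZO family tie the strands to actin. In the epidermis functional tight junctions lie in the granular layer, below the cornified layer that forms the outer barrier.

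Expression was given as FPKM (fragments scaled by transcript length and by the library's total), which is scaled to gene length, so that levels of different genes can be set side by side. Per library, 12056 to 12760 genes reached 1 FPKM and the FPKM values added up to 446617 to 554382. At 6 months these sums were 507051 to 529023 in libraries labelled DKO and 446617 to 473270 in CON libraries, without overlap. At P36 the genes reaching 1 FPKM numbered 12645 to 12760 in libraries labelled DKO and 12104 to 12245 in CON libraries. The sums overlapped at P36, as did the gene numbers at 6 months. The main comparisons below did not even out these sums. The number of reads is unknown, so no counting interval is given. Genotypes were compared within each age with limma on log2(FPKM + 1), and differences with an adjusted p below 0.05 over all genes tested are called. Positive log2 fold changes mean higher in the libraries labelled DKO. This scale understates changes of low genes. The libraries labelled DKO did not have less Vdr. It averaged 83.5 ± 6.06 FPKM in them and 68.0 ± 4.16 FPKM in CON libraries at P36 (SD, n = 3 each), and 48.1 ± 5.49 FPKM in DKO-labelled and 40.5 ± 11.6 FPKM in CON libraries at 6 months. Med1 was lower at P36, with 9.11 ± 1.11 FPKM in libraries labelled DKO and 13.8 ± 0.504 FPKM in CON libraries (log2 fold change −0.55, limma adjusted p = 0.0083), and averaged 11.6 ± 0.256 FPKM in DKO-labelled and 14.2 ± 2.21 FPKM in CON libraries at 6 months (limma adjusted p = 0.130). The values cover whole genes, in which a deleted exon cannot be told apart from the rest. All directions below therefore rest on the labels. Markers of keratinocytes (10 genes, among them Krt5, Krt14, Krt1 and Krt10) were above 0 in every group. At P36 they summed to 10210 to 13010 FPKM in libraries labelled DKO and 5277 to 8016 FPKM in CON libraries. There 5 of 10 were called higher and 0 lower, against 18% and 5.32% of all genes. Among those called were Krt14, Krt1 (2001 FPKM in libraries labelled DKO and 183.9 FPKM in CON libraries) and Krt10 (2326 and 766.7 FPKM). Krt5 was not called. At 6 months the sums overlapped, with 9016 to 11450 FPKM in DKO-labelled and 10950 to 15560 FPKM in CON libraries. Of 9 tested, 2 were called higher, among them Krt1, and 2 lower, Krt5 and Krt10, against 23.2% and 18.2%. The part of the keratinocyte markers in the results below was not tested.

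At P36, 2 of the 10 members, Cldn3 and Cldn4, were called lower in the libraries labelled DKO and none higher, against 23.3% of all genes called in either direction. At 6 months 5 of the 9 members tested were called, against 41.3% of all genes: Cldn1 and Cldn12 were higher, and Cldn3, Cldn4 and Cldn23 were lower. Cldn3 met the filter of 1 FPKM in 3 libraries at that age through the CON libraries alone. The count of 5 thus rests partly on the group where Cldn3 is high. Without the filter 6 members and 5292 of 17750 genes were called. Cldn3 showed the largest difference among the members, with linear means 51.5-fold apart at 6 months. Ocln and F11r were called at neither age. These values come from whole tissue, in which fewer cells of a type and less RNA per cell cannot be told apart.

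**Figure D1:**
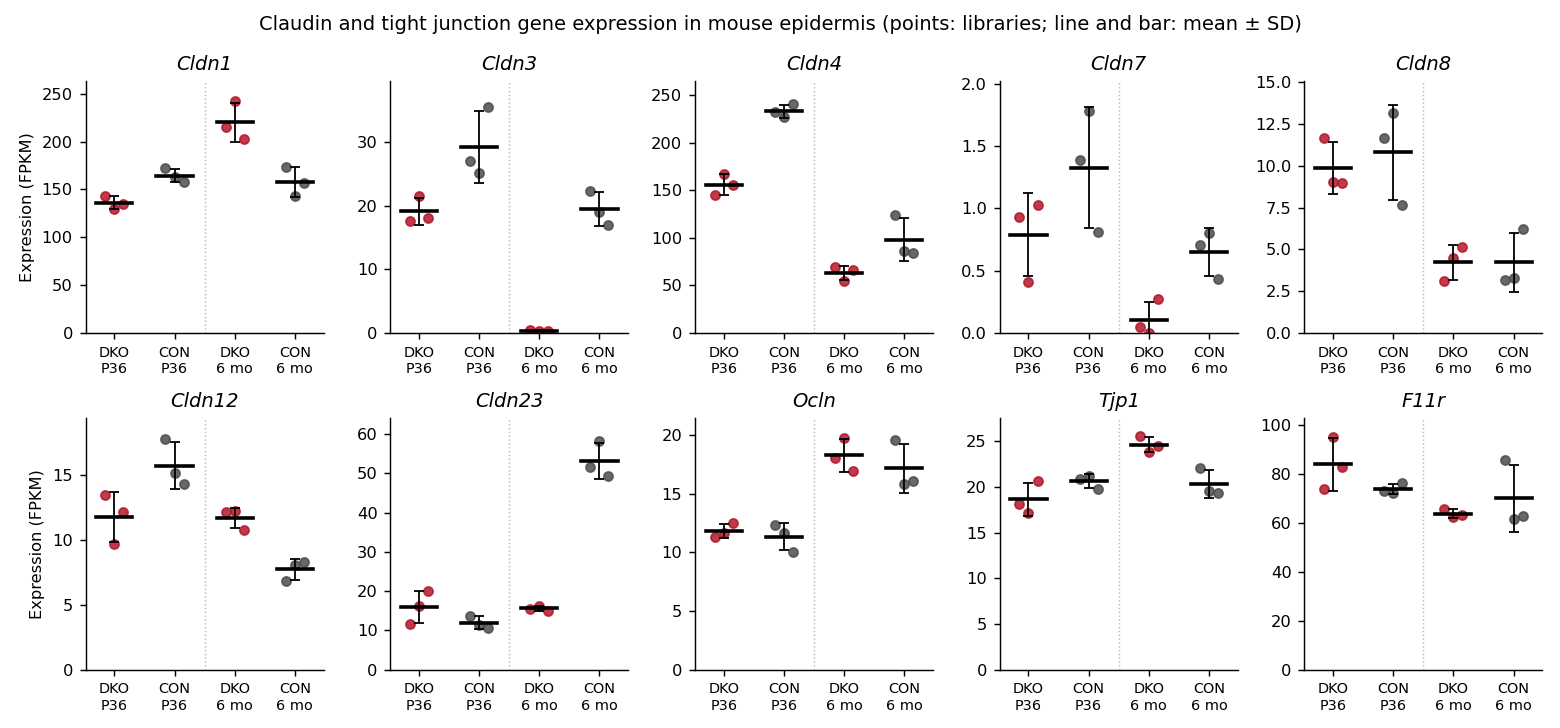
Expression (FPKM, linear axes starting at 0) of the 10 genes in every library at P36 and 6 months. Points are libraries, and lines with bars are means ± SD of 3 libraries. The libraries labelled DKO at 6 months held 0.36 to 0.41 FPKM of Cldn3, against 16.95 to 22.26 FPKM in CON libraries of that age.

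Cldn1 encodes the claudin without which newborn mice die of water loss through the skin. At P36 it had 143.37, 129.97 and 134.39 FPKM in libraries labelled DKO, against 172.46, 162.98 and 158.17 FPKM in CON libraries. The groups did not overlap, but the difference was not called (limma log2 fold change −0.27, SE 0.09, adjusted p = 0.0558). It was called with median-ratio scaling of the libraries (−0.38, limma adjusted p = 0.0193), without a filter on low genes (adjusted p = 0.0493) and with library totals that leave out keratins and cornified envelope genes (adjusted p = 0.0455). Over all alternatives its adjusted p was 0.0193 to 0.176. At 6 months the values were 215.06, 242.62 and 202.59 FPKM in libraries labelled DKO, against 173.71, 142.78 and 156.84 FPKM in CON libraries. Every library labelled DKO was above every CON library (limma log2 fold change 0.48, SE 0.11, adjusted p = 0.0149). These reduced totals ended that call (0.28, limma adjusted p = 0.0769), as did leaving out CON replicate 2 (0.41, adjusted p = 0.0582), and the adjusted p was 0.0019 to 0.0769 over all alternatives. Among the 4 groups, the DKO group at 6 months had the highest level, and the ranges of both CON groups overlapped.

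Cldn4 and Cldn3 encode claudins that serve as receptors of an enterotoxin of Clostridium perfringens, and in the mouse their genes are direct protein-coding neighbours on chromosome 5. At P36 Cldn4 had 145.00, 166.92 and 155.39 FPKM in libraries labelled DKO, against 232.48, 226.95 and 240.79 FPKM in CON libraries, with no overlap (limma log2 fold change −0.58, SE 0.09, adjusted p = 0.0036). The 6-month libraries labelled DKO had 68.99, 55.13 and 66.68 FPKM of it, against 124.18, 86.07 and 84.58 FPKM in CON libraries. These groups did not overlap either (−0.60, SE 0.17, limma adjusted p = 0.0270), although CON replicate 1 stood well above the other CON libraries. The 6-month call was lost without DKO replicate 1 (−0.66, adjusted p = 0.0501) or DKO replicate 2 (−0.51, limma adjusted p = 0.0923), within a range of 0.0045 to 0.0923 over all alternatives. The 4 groups did not overlap in Cldn4, in the order CON at P36, DKO at P36, CON at 6 months and DKO at 6 months.

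Cldn3 had 17.62, 21.48 and 18.12 FPKM in libraries labelled DKO at P36, against 26.98, 25.03 and 35.53 FPKM in CON libraries. All libraries labelled DKO were below all CON libraries (limma log2 fold change −0.58, SE 0.14, adjusted p = 0.0227), but the call was lost without DKO replicate 1 (−0.53, adjusted p = 0.0661) or DKO replicate 3 (−0.55, limma adjusted p = 0.0826), within a range of 0.0091 to 0.0826 over all alternatives. In libraries labelled DKO at 6 months it had 0.41, 0.36 and 0.36 FPKM, against 22.26, 18.98 and 16.95 FPKM in CON libraries. The log2 fold change was −3.88 (SE 0.13, limma adjusted p = 3.45e-05). Cldn3 met the filter of 1 FPKM in 3 libraries at this age only through the CON libraries, and without the filter the value was −3.88 (limma adjusted p = 0.000282). In the authors' deposited table its log2 ratio was −5.68. In the mouse annotation GENCODE M21, 40 of the 1259 exon bases of Cldn3 overlap the antisense gene Wbscr25, and the sources used here do not say whether counting used strand.

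Promoters of the neighbours Cldn3 and Cldn4, both lower, and of Cldn1, the most abundant claudin by FPKM at 6 months and higher at that age, are shown so that their sequence can be compared. Each is the 300 bases from 250 before to 50 after the gene's start, 5′ to 3′ on the gene's strand, from RefSeq (GRCm38.p6): chr5:134985964-134986263 on the plus strand for Cldn3, chr5:134946885-134947184 on the minus strand for Cldn4 and chr16:26371790-26372089 on the minus strand for Cldn1. Capitals mark matches, on either strand, to the GC box GGGCGG or to CACCTG, the E box form bound by Snail factors.
Cldn3: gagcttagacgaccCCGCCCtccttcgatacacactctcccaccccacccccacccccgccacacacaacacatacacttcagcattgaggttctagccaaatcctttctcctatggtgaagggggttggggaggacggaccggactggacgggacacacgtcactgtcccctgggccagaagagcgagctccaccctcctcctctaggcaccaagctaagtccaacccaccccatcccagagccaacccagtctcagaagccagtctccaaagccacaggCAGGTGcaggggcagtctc
Cldn4: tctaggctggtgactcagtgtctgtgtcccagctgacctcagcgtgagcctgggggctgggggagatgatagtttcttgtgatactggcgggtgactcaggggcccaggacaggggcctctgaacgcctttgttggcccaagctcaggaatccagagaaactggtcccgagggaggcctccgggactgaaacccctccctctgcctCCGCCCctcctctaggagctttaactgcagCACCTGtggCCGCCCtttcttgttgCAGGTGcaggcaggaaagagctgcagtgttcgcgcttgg
Cldn1: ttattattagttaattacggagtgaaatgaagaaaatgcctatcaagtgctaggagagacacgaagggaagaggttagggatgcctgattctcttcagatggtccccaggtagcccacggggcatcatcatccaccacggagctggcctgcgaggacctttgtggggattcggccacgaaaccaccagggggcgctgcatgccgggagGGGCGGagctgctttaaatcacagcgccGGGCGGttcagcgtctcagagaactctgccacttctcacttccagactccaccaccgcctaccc
Cldn3 held 1 GC box and 1 CACCTG match, Cldn4 held 2 of each, and Cldn1 held 2 GC boxes and no CACCTG match.

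The motifs were chosen after the expression values were known, and a match is a description only. Promoter entries were found for 8 of the 10 members, Cldn8 and Cldn23 being the others. GGGCGG was in all 8, against 35.7% of the 32851 promoters in the table, and CACCTG was in 5 (Cldn3, Cldn4, Cldn7, F11r and Ocln), against 20.2%. TATAAA (13.6% of all promoters) and the grainyhead motif AACCGGTT (0.146%) were in none of the 8. The same held for the direct repeats of the kind bound by the vitamin D receptor, 2 copies of AGGTCA or of GGTTCA in the same direction with 3 bases between them, which were each in 0.00609% of all promoters. Exact motifs as rare as these repeats and AACCGGTT are missing from almost any 8 promoters, so their absence here carries no information. Both strands were searched, and none of these motifs contains another.

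Cldn23 encodes a claudin known from the differentiated cells of the colon. At P36 it had 11.76, 16.29 and 19.98 FPKM in libraries labelled DKO, against 13.78, 11.48 and 10.70 FPKM in CON libraries. The groups overlapped through DKO replicate 1 (limma log2 fold change 0.37, SE 0.18, adjusted p = 0.202), and without that library the difference was called (0.56, limma adjusted p = 0.0351, within 0.0351 to 0.524 over all alternatives). At 6 months it had 15.46, 16.29 and 15.02 FPKM in libraries labelled DKO, against 51.65, 58.11 and 49.41 FPKM in CON libraries. The CON libraries were 3.40-fold higher in the mean and far from overlap (−1.70, SE 0.10, limma adjusted p = 0.000113). Across the 4 groups the CON group at 6 months stood alone with 53.1 ± 4.52 FPKM, while the means of the other groups lay between 11.99 and 16.0 FPKM.

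Cldn12 lacks the binding motif for ZO scaffolds that most claudins carry, and its expression in mouse intestine is known to depend on the vitamin D receptor. At P36 it had 13.47, 9.66 and 12.17 FPKM in libraries labelled DKO, against 17.74, 15.10 and 14.26 FPKM in CON libraries. The groups did not overlap, and the difference was not called (limma log2 fold change −0.39, SE 0.14, adjusted p = 0.0788), except with median-ratio scaling (−0.49, limma adjusted p = 0.0333, within 0.0333 to 0.230 over all alternatives). The 6-month libraries labelled DKO had 12.10, 12.18 and 10.78 FPKM of it, against 6.81, 8.07 and 8.26 FPKM in CON libraries. All libraries labelled DKO were above all CON libraries (0.54, SE 0.11, limma adjusted p = 0.0088). The means of the DKO group were 11.8 FPKM at P36 and 11.7 FPKM at 6 months, with overlapping ranges, while the CON groups were the highest (P36) and the lowest (6 months) of the 4.

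Cldn7 and Cldn8 were the low members. Cldn7, which is needed for an intact intestinal epithelium in mice, had 0.93, 0.41 and 1.03 FPKM in libraries labelled DKO at P36, against 1.39, 1.78 and 0.81 FPKM in CON libraries. These groups overlapped (limma log2 fold change −0.37, SE 0.21, adjusted p = 0.255). In libraries labelled DKO at 6 months it had 0.05, 0.00 and 0.27 FPKM, against 0.71, 0.80 and 0.43 FPKM in CON libraries, and it did not meet the filter, although the groups did not overlap. Without the filter its log2 fold change was −0.57 (SE 0.12, limma adjusted p = 0.0161).

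Cldn8, a claudin known to limit the passage of cations in kidney epithelium, had 11.69, 9.02 and 8.95 FPKM in libraries labelled DKO at P36, against 11.65, 13.14 and 7.64 FPKM in CON libraries. At 6 months it had 3.09, 4.48 and 5.12 FPKM in libraries labelled DKO, against 3.15, 3.27 and 6.25 FPKM in CON libraries. The groups overlapped at both ages. The log2 fold change was −0.10 at P36 (95% confidence interval −0.54 to 0.35, limma adjusted p = 0.778) and 0.03 at 6 months (interval −0.57 to 0.63, adjusted p = 0.930), so differences within these intervals are not excluded.

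Ocln, which encodes occludin, had 11.33, 11.63 and 12.47 FPKM in libraries labelled DKO at P36, against 12.32, 11.65 and 10.05 FPKM in CON libraries. The 6-month libraries labelled DKO had 18.04, 19.77 and 16.96 FPKM of it, against 19.56, 15.84 and 16.07 FPKM in CON libraries. The genotypes overlapped at both ages. The log2 fold changes were 0.06 (95% confidence interval −0.19 to 0.30, limma adjusted p = 0.754) at P36 and 0.09 (interval −0.19 to 0.36, adjusted p = 0.572) at 6 months. Neither of these small values kept its sign under every scaling of the libraries: median-ratio scaling gave −0.04 at P36, and totals leaving out keratins and cornified envelope genes gave −0.10 at 6 months.

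F11r, whose product is an immunoglobulin-type adhesion molecule of the junction, had 73.78, 95.15 and 82.75 FPKM in libraries labelled DKO at P36, against 72.83, 72.24 and 76.13 FPKM in CON libraries. In libraries labelled DKO at 6 months it had 65.83, 62.23 and 63.27 FPKM, against 85.59, 61.60 and 62.73 FPKM in CON libraries. The groups overlapped at both ages, and CON replicate 1 was the high library at 6 months. The log2 fold change was 0.18 at P36 (95% confidence interval −0.07 to 0.42, limma adjusted p = 0.290) and −0.12 at 6 months (interval −0.44 to 0.21, adjusted p = 0.531), and the 6-month value was 0.04 without CON replicate 1.

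Tjp1 encodes ZO-1, the scaffold that binds claudins and occludin from the cytoplasm. At P36 it had 18.10, 17.15 and 20.66 FPKM in libraries labelled DKO, against 20.86, 21.26 and 19.79 FPKM in CON libraries, which overlapped (limma log2 fold change −0.14, SE 0.10, adjusted p = 0.348). At 6 months it had 25.59, 23.89 and 24.48 FPKM in libraries labelled DKO, against 22.09, 19.61 and 19.31 FPKM in CON libraries. All libraries labelled DKO were above all CON libraries at 6 months, but the difference was not called (0.27, SE 0.09, limma adjusted p = 0.0568). It was called with a filter at 5 FPKM (adjusted p = 0.0482), in a fit of all 12 libraries (adjusted p = 0.0303) and without CON replicate 1 (0.33, limma adjusted p = 0.0291), and its adjusted p was 0.0291 to 0.580 over all alternatives.

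Of the 10 members tested at P36, 2 were called lower and 0 higher, against 23.3% of the 12660 genes tested at that age in either direction (18% higher and 5.32% lower). The count was 4 with median-ratio scaling, where 2665 of 12642 genes were called. It was 1 without DKO replicate 3, where 1697 of 12321 genes were called. The median log2 fold change was −0.21 over the members and 0.09 over all genes tested. At 6 months 2 of 9 were called higher and 3 lower, against 41.3% of 12594 genes in either direction (23.2% higher and 18.2% lower), with medians of 0.03 over the members and 0.04 over all genes. Groups did not overlap for 4 of 10 members at P36, against 39.6% of all genes, and for 6 of 9 at 6 months, against 55.7%. The members' share of calls was thus close to the background at P36 and somewhat above it at 6 months, where 1 member of 9 moves the share by more than 10 percentage points. Cldn3 is among these 9 only through its CON libraries. The 6-month counts of calls and of groups without overlap thus rest partly on the group where it is high. Of all genes called at P36, 77.1% were higher, and 63.8% with median-ratio scaling. At 6 months 56% were higher, and 34.9% with totals leaving out keratins and cornified envelope genes, a scaling that also moved the median of all genes there to −0.13.

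**Figure D2:**
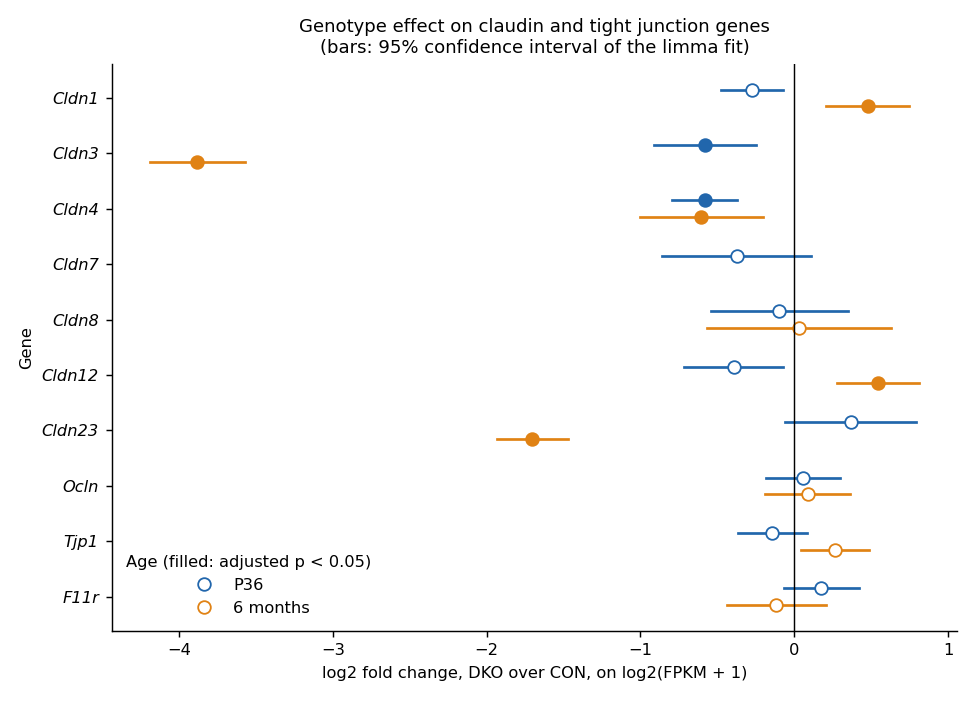
Log2 fold change of libraries labelled DKO over CON libraries, on log2(FPKM + 1), for each gene at P36 and 6 months, with 95% confidence intervals from limma. Filled points were called at an adjusted p below 0.05. Cldn3 lies at −0.58 at P36 and at −3.88 at 6 months, Cldn4 lies near −0.6 at both ages, and Cldn7 has no point at 6 months because it did not meet the filter.

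The difference between the genotype effects at the 2 ages (6 months minus P36) was tested in a fit of all 12 libraries. It was called for 5 of the 10 members, 3 higher and 2 lower, against 34.9% of the 13280 genes tested (13.8% higher and 21.1% lower). Cldn3 had a difference of −3.30 (SE 0.20, limma adjusted p = 1.3e-05) and Cldn23 of −2.07 (SE 0.22, adjusted p = 0.000122). Cldn12 had 0.94 (SE 0.18, limma adjusted p = 0.0030), Cldn1 had 0.75 (SE 0.14, adjusted p = 0.0019) and Tjp1 had 0.41 (SE 0.13, adjusted p = 0.0280). The Tjp1 call was lost in 7 fits that left out 1 library, with the replicate block (limma adjusted p = 0.0657) and with totals leaving out keratins and cornified envelope genes (0.28, adjusted p = 0.185), each of which leaves 4 other members called. The size for Cldn3 depends on the constant added to the FPKM, since its DKO-labelled libraries at 6 months lie under 1 FPKM: with 0.1 in place of 1 the difference was −4.75, and the 6-month effect −5.35. Among these 5 members, Cldn1, Cldn12 and Cldn23 had genotype effects of opposite signs at the 2 ages, with only the 6-month effect called. Tjp1 also had opposite signs (−0.14 at P36 and 0.27 at 6 months), with neither effect called. Cldn4 had a difference of −0.02 with a 95% confidence interval of −0.46 to 0.41 (limma adjusted p = 0.945). Levels of the 2 ages come from separate tables, so age and table cannot be told apart, and levels across ages are given side by side without a test.

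The make-up of the claudin level was described over 24 claudin genes, with no test. Summed claudin FPKM was 379.1 ± 5.42 in libraries labelled DKO and 512.5 ± 12.7 in CON libraries at P36, without overlap, and 324.2 ± 11.99 in DKO-labelled and 361.7 ± 38.1 in CON libraries at 6 months, with overlap (SD, n = 3 each). These sums were not divided by the total FPKM. At 6 months that total was higher in every library labelled DKO than in every CON library. Cldn1 made up 33.7 to 38.2% of the summed claudin FPKM in libraries labelled DKO and 31.1 to 32.8% in CON libraries at P36. At 6 months its share was 64.8 to 72.1% in libraries labelled DKO and 43.0 to 44.7% in CON libraries. Cldn4 made up 38.6 to 43.3% in libraries labelled DKO and 44.2 to 47.3% in CON libraries at P36, and 16.4 to 21.4% in DKO-labelled and 24.1 to 30.7% in CON libraries at 6 months. By FPKM, Cldn4 was thus the most abundant claudin in every P36 library and Cldn1 in every 6-month library. The ratio of Cldn4 to Cldn1 was 1.01 to 1.28 in libraries labelled DKO and 1.35 to 1.52 in CON libraries at P36, and 0.227 to 0.329 in DKO-labelled and 0.539 to 0.715 in CON libraries at 6 months. Cldn23 held 4.79 to 4.84% in libraries labelled DKO at 6 months, against 12.8 to 17.6% in CON libraries, and Cldn3 held 0.107 to 0.127% in DKO-labelled and 4.83 to 5.75% in CON libraries.

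**Figure D3:**
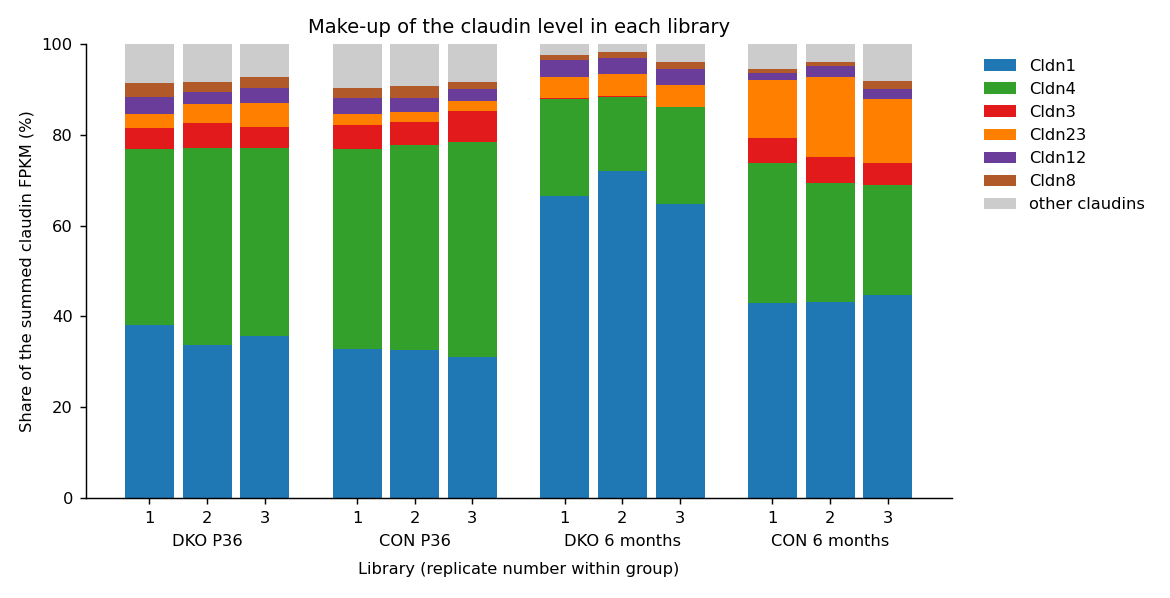
Share (%) of each claudin in the summed FPKM of 24 claudin genes, 1 bar per library. At 6 months Cldn1 fills 64.8 to 72.1% of the bars labelled DKO and 43.0 to 44.7% of the CON bars, and the Cldn23 and Cldn3 segments are smaller in the bars labelled DKO.

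Genes whose pattern over the 12 libraries was most like that of a called member were found by Pearson's r of log2(FPKM + 1) among 12046 genes. The libraries share 4 groups and are not independent points, so r is a description. Cldn3 was nearest to Bmp4, a secreted growth factor (r = 0.978), Lhx2, a transcription factor of hair follicle stem cells (0.975), and Pbxip1 (0.970). Bmp4 averaged 3.89 ± 0.309 FPKM in libraries labelled DKO and 21.6 ± 5.33 FPKM in CON libraries at 6 months, and Lhx2 averaged 2.29 ± 1.35 FPKM in DKO-labelled and 34.1 ± 11.3 FPKM in CON libraries. Cldn23 was nearest to Agpat4 (0.990), Cldn4 to Aplp2 (0.986), Cldn12 to Eri1 (0.973) and Cldn1 to Ccdc174 (0.961).

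Among the other claudins, 6 had enough expression to be tested at P36. Cldn15, a sodium pore of the gut, was called higher, and Cldn10, which forms ion pores in kidney, and Cldn14, needed for hearing, were called lower (background 18% higher and 5.32% lower). Cldn10 averaged 10.2 ± 3.14 FPKM in libraries labelled DKO and 24.5 ± 3.68 FPKM in CON libraries (log2 fold change −1.21, limma adjusted p = 0.0041), and Cldn14 averaged 4.89 ± 1.09 FPKM in DKO-labelled and 10.3 ± 0.735 FPKM in CON libraries (−0.95, adjusted p = 0.0034). Cldn15 averaged 2.97 ± 1.15 FPKM in DKO-labelled and 1.38 ± 0.290 FPKM in CON libraries (0.71, limma adjusted p = 0.0439), a call lost in every fit that left out 1 library except that without DKO replicate 3. At 6 months 5 were tested and Cldn10 and Cldn19 were called lower (background 18.2% lower). Cldn19 met the filter through the CON libraries alone, so that its call and the count of 2 rest on the group where it is high. Cldn10 averaged 1.03 ± 0.633 FPKM in libraries labelled DKO and 7.01 ± 3.65 FPKM in CON libraries (−1.89, limma adjusted p = 0.0104), and Cldn19 averaged 0.507 ± 0.180 FPKM in DKO-labelled and 2.43 ± 0.789 FPKM in CON libraries (−1.17, adjusted p = 0.0040). Without the filter the values were the same, and both genes were still called. With any single CON library left out Cldn19 no longer met the filter and the count was 1.

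Among the other membrane proteins of the junction, 4 of 10 tested were called higher at P36, against 18% of all genes: Marveld1, Esam, Cxadr and Jam2. The count was 2 without DKO replicate 2, DKO replicate 3 or CON replicate 2, and 2 with the replicate number as a block. Of all genes these fits called 1662, 1697, 2262 and 2607, against 2949. Marveld1, a MARVEL domain protein like occludin, averaged 19.3 ± 1.65 FPKM in libraries labelled DKO and 11.5 ± 1.199 FPKM in CON libraries (log2 fold change 0.70, limma adjusted p = 0.0036). Esam, an adhesion molecule of endothelium, averaged 12.7 ± 3.75 FPKM in DKO-labelled and 4.89 ± 0.639 FPKM in CON libraries (1.19, limma adjusted p = 0.0045). With it, 8 of 10 endothelium markers were called higher at P36 (summed 69.2 to 106.0 FPKM in libraries labelled DKO and 39.7 to 44.5 FPKM in CON libraries), a list that holds Esam itself. The calls of Cxadr and Jam2 were lost without DKO replicate 2 (0.46 and 0.44), DKO replicate 3 (0.50 and 0.42) or CON replicate 2 (0.41 and 0.46), and that of Jam2 also without CON replicate 1 (0.51) or 3 (0.45). Both were also lost with median-ratio scaling (limma adjusted p = 0.0817 and 0.0619) and with the replicate block (adjusted p = 0.0511 and 0.0780). Jam2 was further lost with totals leaving out keratins and cornified envelope genes (limma adjusted p = 0.0599). The same held in the fit of all 12 libraries (adjusted p = 0.248). At 6 months 1 of 10 was called higher and 5 lower, against 23.2% and 18.2% of all genes, and the difference between ages was called lower for 6 of 10, against 21.1%. Cxadr, a virus receptor of the junction, averaged 98.9 ± 8.48 FPKM in libraries labelled DKO and 52.4 ± 6.93 FPKM in CON libraries (0.91, limma adjusted p = 0.0017). Lsr, which gathers junction proteins where 3 cells meet, averaged 54.9 ± 4.94 FPKM in DKO-labelled and 148.2 ± 7.15 FPKM in CON libraries (−1.42, limma adjusted p = 0.000194), and Marveld2, its partner tricellulin and the neighbour of Ocln on chromosome 13, averaged 6.94 ± 0.297 FPKM in DKO-labelled and 15.9 ± 1.67 FPKM in CON libraries (−1.08, adjusted p = 0.000679). Marveld1 averaged 13.4 ± 2.69 FPKM in DKO-labelled and 44.4 ± 11.8 FPKM in CON libraries at this age (−1.64, limma adjusted p = 0.0014), and Marveld3 and Jam3 were also called lower.

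Of the scaffolds and signalling proteins of the junction, 1 of 24 tested was called higher and 4 lower at P36, against 18% and 5.32% of all genes. This count of 5 fell to 2 without DKO replicate 2 or CON replicate 1 and to 3 without DKO replicate 3 or CON replicate 2. Of all genes these fits called 1662, 2066, 1697 and 2262, against 2949. The polarity gene Pard6b averaged 7.08 ± 0.551 FPKM in DKO-labelled and 12.5 ± 1.37 FPKM in CON libraries (log2 fold change −0.74, limma adjusted p = 0.0033). At 6 months 1 of 23 was called higher and 10 lower, against 23.2% and 18.2% of all genes, with a median of −0.37 against 0.04 over all genes. Cgn (cingulin), which links the junction to actin and myosin, averaged 20.2 ± 2.29 FPKM in libraries labelled DKO and 59.8 ± 0.898 FPKM in CON libraries (−1.52, limma adjusted p = 0.000194). The 2 atypical protein kinase C genes of the polarity complex were called in opposite directions: Prkci averaged 49.9 ± 3.92 FPKM in DKO-labelled and 31.6 ± 0.883 FPKM in CON libraries (0.64, limma adjusted p = 0.0022), and Prkcz averaged 1.71 ± 0.145 FPKM in DKO-labelled and 4.28 ± 0.101 FPKM in CON libraries (−0.97, adjusted p = 0.0012). Ybx3, also called ZONAB, a nucleic acid binding partner of ZO-1, averaged 384.9 ± 35.1 FPKM in DKO-labelled and 706.4 ± 80.3 FPKM in CON libraries (−0.87, limma adjusted p = 0.0022).

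Adherens junction genes, of the belt below the tight junction, were called in 4 of 14 cases at P36 (2 higher, 2 lower) and in 7 of 14 at 6 months (1 higher, 6 lower). These shares of 28.6% and 50% stand against 23.3% and 41.3% of all genes. A fit of all 12 libraries gave 2 calls at P36 and 11 at 6 months. Of the 13280 genes in that fit, 2836 were called at P36 and 6128 at 6 months. The count was 2 at P36 without DKO replicate 2 (1662 of 12316 genes called) or DKO replicate 3 (1697 of 12321). It was 4 at 6 months without DKO replicate 2 (3682 of 12433). Nectin3, a nectin adhesion molecule, averaged 7.93 ± 2.33 FPKM in libraries labelled DKO and 56.8 ± 2.20 FPKM in CON libraries at 6 months (log2 fold change −2.73, limma adjusted p = 0.000180). Nectin4 averaged 58.4 ± 5.34 FPKM in DKO-labelled and 108.2 ± 11.2 FPKM in CON libraries (−0.88, limma adjusted p = 0.0015), and Nectin2 averaged 18.9 ± 3.88 FPKM in DKO-labelled and 41.8 ± 12.1 FPKM in CON libraries (−1.08, adjusted p = 0.0085). Ctnnb1, the beta-catenin gene, averaged 181.8 ± 10.2 FPKM in DKO-labelled and 146.8 ± 9.50 FPKM in CON libraries (0.31, limma adjusted p = 0.0370), a call lost in every fit that left out 1 library except that without CON replicate 1. It was also lost with median-ratio scaling (0.24, limma adjusted p = 0.108), with the replicate block (adjusted p = 0.0883) and with totals leaving out keratins and cornified envelope genes (0.11, adjusted p = 0.406).

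**Figure D4:**
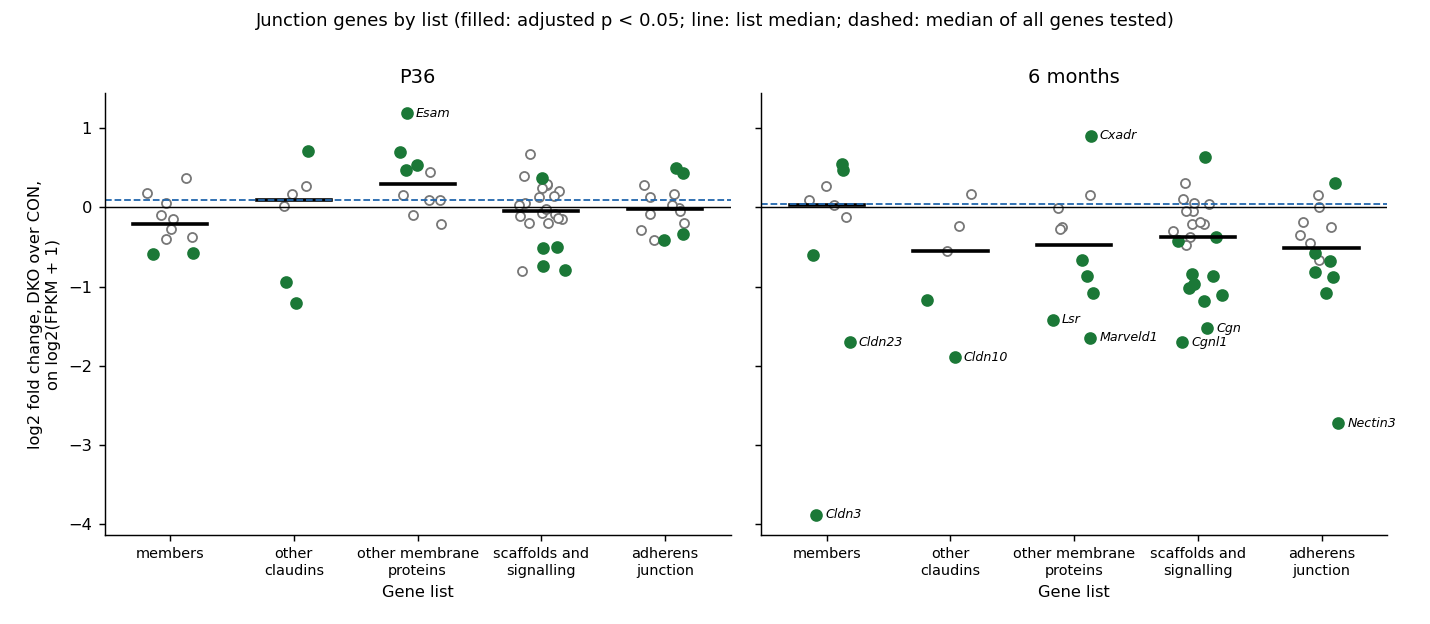
Log2 fold change of libraries labelled DKO over CON libraries, on log2(FPKM + 1), for the genes tested in each junction list at P36 and 6 months. Each point is a gene, filled where called, black lines are list medians, and the dashed line is the median of all genes tested. At 6 months the medians of the membrane, scaffold and adherens lists lie at −0.47, −0.37 and −0.51, against 0.04 over all genes.

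Markers of other cell types and of layers were also compared between the genotypes, and their part in the results above was not tested. Of all genes tested, 23.3% were called at P36 (18% higher and 5.32% lower) and 41.3% at 6 months (23.2% higher and 18.2% lower). At 6 months the lists of macrophages and neutrophils (30%), melanocytes (28.6%), fibroblasts (10%), endothelium and skeletal muscle (both 0%) lay below that share. Those of hair follicle (50%), Langerhans cells (60%), sebaceous gland (70%) and granular layer (76.9%) lay above it. At P36, 12 of 13 hair follicle markers were called lower (summed 11710 to 15500 FPKM in libraries labelled DKO and 25140 to 30580 FPKM in CON libraries), and 10 of 10 skeletal muscle markers were called higher (134.6 to 580.0 FPKM in DKO-labelled and 14.9 to 29.3 FPKM in CON libraries). Macrophage and neutrophil markers were called higher in 8 of 10 cases (291.8 to 516.6 FPKM in DKO-labelled and 74.4 to 146.7 FPKM in CON libraries), and Langerhans cell markers in 6 of 10 (707.3 to 840.1 FPKM in DKO-labelled and 366.7 to 467.3 FPKM in CON libraries). Sebaceous gland markers were called higher in 7 of 10 cases (1065 to 1409 FPKM in DKO-labelled and 504.5 to 651.9 FPKM in CON libraries) and dermal fibroblast markers in 6 of 10 (1121 to 1517 FPKM in DKO-labelled and 611.8 to 1197 FPKM in CON libraries), while melanocyte markers were called lower in 5 of 8 (208.7 to 383.4 FPKM in DKO-labelled and 402.7 to 728.2 FPKM in CON libraries). Granular layer markers were called higher in 4 and lower in 2 of 13 at P36. Their summed level there was 3213 to 3785 FPKM in DKO-labelled and 2394 to 3577 FPKM in CON libraries. At 6 months these markers split, with 5 of 13 called higher and 5 lower. Their summed level at 6 months was 4820 to 5719 FPKM in libraries labelled DKO and 7294 to 11130 FPKM in CON libraries. The summed level of hair follicle markers was higher in the libraries labelled DKO at this age (1062 to 1859 FPKM in DKO-labelled and 756.4 to 854.7 FPKM in CON libraries), although 1 of 8 tested was called higher and 3 lower. Macrophage and neutrophil markers were called higher in 2 and lower in 1 of 10 (316.6 to 692.5 FPKM in DKO-labelled and 99.6 to 148.5 FPKM in CON libraries). At the same age sebaceous gland markers were called higher in 7 of 10 cases (2359 to 2513 FPKM in DKO-labelled and 576.4 to 948.7 FPKM in CON libraries), and Langerhans cell markers higher in 2 and lower in 4 of 10 (888.7 to 1198 FPKM in DKO-labelled and 1412 to 1802 FPKM in CON libraries). Endothelium markers (33.5 to 75.3 FPKM in DKO-labelled and 41.4 to 67.9 FPKM in CON libraries) and skeletal muscle markers (11.2 to 147.3 FPKM in DKO-labelled and 11.1 to 66.6 FPKM in CON libraries) overlapped at 6 months, as did those of dermal fibroblasts (364.5 to 1054 FPKM in DKO-labelled and 566.5 to 1056 FPKM in CON libraries) and melanocytes (21.2 to 41.6 FPKM in DKO-labelled and 25.1 to 47.7 FPKM in CON libraries). Of all these markers, the hair follicle gene Shh alone was at 0 in all 3 libraries of a group, those labelled DKO at 6 months.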

How the data were processed

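Total RNA of dorsal epidermis, separated by heating the skin, was depleted of ribosomal RNA with RNase H and read as 50-base single-end reads, per the labels' protocols. HISAT2 2.1.0 and RSEM 1.2.8 were used per the submitters' processing notes, which name human genome builds for these mouse samples. The authors deposited 1 table per age with FPKM per gene and library, and for each gene their log2 ratio of DKO over CON with a q-value and p-value. Their test is not given in the sources used. Their q-value was below 0.05 for 9 of the 10 members at P36 and for 9 of 10 at 6 months. Members not called here are among them, such as F11r and Tjp1 at both ages (log2 ratios of 0.19 and −0.15 at P36). The share of all genes below that threshold is not given here, so these counts are not a result about the members. A table's age comes from its name alone.

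In R 4.3.3, limma 3.58.1 (lmFit, eBayes with trend) was fitted to log2(FPKM + 1) keeping genes that reached 1 FPKM in 3 or more of the fitted libraries, with Benjamini-Hochberg adjustment over all genes tested. Each age was fitted on its 6 libraries, and the difference between ages on all 12. The fit was also run on simulated data with independent noise and known changes in genes that were not low. That run does not cover low genes, shifts of whole libraries or libraries that are not independent. Its outcome is not reported here. Members and gene lists were chosen with earlier results of these data known. Beyond the members, up to 4 called genes per junction list, direction and age, those of smallest adjusted p, could be named, together with the 3 genes most like each called member and Vdr and Med1. Genes outside this rule were chosen after their values were seen. Alternatives were another pseudocount (0.1), other filters (none, or 5 FPKM), median-ratio scaling, totals without keratin and cornified envelope genes, a fit of all 12 libraries, a replicate block and leaving out each library. FPKM gives no depth, so precision rests on the spread over 3 libraries. No pair of libraries was a duplicate.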

Additional observations from a re-analysis of the deposited data

Results flagged for a closer look

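The genotype effect differed between the ages for 5 of the 10 members in a test of the difference itself (6 months minus P36, on log2(FPKM + 1), all 12 libraries, limma with adjustment over all genes). The ages stand on separate tables, so age and table cannot be told apart, and 34.9% of all genes tested were called in the same way. Cldn3 had −3.30 (SE 0.20, limma adjusted p = 1.3e-05; −4.75 with a pseudocount of 0.1) and Cldn23 had −2.07 (SE 0.22, adjusted p = 0.000122). Cldn12 had 0.94 (SE 0.18, limma adjusted p = 0.0030) and Cldn1 had 0.75 (SE 0.14, adjusted p = 0.0019). Tjp1 had 0.41 (SE 0.13, limma adjusted p = 0.0280), with neither of its effects at a single age called, and its call was lost in 7 fits that left out 1 library, with the replicate block (adjusted p = 0.0657) and with totals leaving out keratins and cornified envelope genes (0.28, adjusted p = 0.185).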

How the results depend on the processing

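Under the alternatives, 372 of 417 values of single members kept their direction and their side of the threshold, 15 lost and 8 gained a call, and 22 uncalled values changed sign. With median-ratio scaling 4 members and 2665 of 12642 genes were called at P36. Leaving out 1 library at a time gave 1 to 2 called members at P36, 3 to 5 at 6 months and 4 to 5 in the difference between ages. Of all genes it gave 1662 to 2660 calls at P36, the lowest without DKO replicate 2 (1662) and DKO replicate 3 (1697), against 2949. At 6 months it gave 3682 to 4893 called genes, against 5207, and in the difference 3603 to 4843, against 4631. At 6 months 3 members and 3743 of 12363 genes were called without CON replicate 2, where Cldn3 no longer met the filter. With no filter and each CON library left out in turn, chosen after seeing the data, Cldn3 stayed between −3.97 and −3.78 (limma adjusted p at most 0.0030). The values that changed sign were Ocln at P36 (median-ratio −0.037; library left out, −0.020 to 0.115) and at 6 months (totals leaving out keratins and cornified envelope genes, −0.10), Cldn8 at 6 months (median-ratio −0.02; those totals −0.13; library left out, −0.11 to 0.29) and at P36 (library left out, −0.31 to 0.049), and F11r at 6 months (library left out, −0.20 to 0.036). In the difference between ages they were Cldn4 (median-ratio 0.073; library left out, −0.12 to 0.16), Cldn8 (library left out, −0.018 to 0.39) and Ocln (those totals −0.10; library left out, −0.026 to 0.124). The Tjp1 difference between ages was lost with those totals (0.28, limma adjusted p = 0.185, within 0.0154 to 0.185 over all alternatives) and without each of 7 libraries, among them CON replicate 3 at 6 months (0.38, adjusted p = 0.0670). The cause of these changes was not tested. Equal replicate numbers did not pair the libraries: deviations of same-numbered libraries correlated between −0.115 and 0.183. With the replicate number as a block, 2607 genes were called at P36, 4862 at 6 months and 4223 in the difference, and 2, 5 and 4 members, with Tjp1 at adjusted p = 0.0657 the member lost. Depth is unknown, so no floor can be set for values under 1 FPKM, such as those of Cldn7.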

Other observations

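Some junction genes shared the pattern of Cldn23, in which the CON group at 6 months stood apart from the other groups. They were picked after their values were seen, and levels across ages come from separate tables and were not tested. Marveld1 averaged 19.3 FPKM in libraries labelled DKO and 11.5 FPKM in CON libraries at P36, and 13.4 FPKM in DKO-labelled and 44.4 FPKM in CON libraries at 6 months. Cgn averaged 14.97 FPKM in DKO-labelled and 14.3 FPKM in CON libraries at P36, and 20.2 FPKM in DKO-labelled and 59.8 FPKM in CON libraries at 6 months. Tjp3, a scaffold related to Tjp1, averaged 12.4 FPKM in DKO-labelled and 7.59 FPKM in CON libraries at P36, and 20.4 FPKM in DKO-labelled and 42.2 FPKM in CON libraries at 6 months. Among transcription factors of the outer epidermis, 0 of 8 were called higher and 2 lower at 6 months. That share of 25% stands against 41.3% of all genes called in either direction. At P36 2 of 8 were called higher and 2 lower, against 18% and 5.32% of all genes. Klf4 was lower in libraries labelled DKO at 6 months (158.9 FPKM, against 549.5 FPKM in CON libraries, log2 fold change −1.67, limma adjusted p = 0.0056) and Gata3 was lower at both ages (−0.81, limma adjusted p = 0.0019 at P36, and −1.73, adjusted p = 0.0112 at 6 months). Grhl3 was higher at P36 (0.42, limma adjusted p = 0.0289) and Grhl1 lower (−0.40, adjusted p = 0.0185).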
